A study of Arabidopsis thaliana with 24 samples.

Results

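The ABA response of abi1td seedlings was read from 6 of the 24 small RNA libraries of the series, the 3 abi1td libraries treated with ABA and the 3 abi1td mock libraries, chosen by genotype and treatment in the labels. The abi1td line is a T-DNA insertion mutant of Arabidopsis thaliana in the Columbia background, which the labels call a Salk line mutant. Whole seedlings aged 2 weeks, grown on Murashige and Skoog medium with sucrose, received 100 µM ABA from a methanol stock, or the mock treatment, and were kept for 4 h. WT Col-0 seedlings and the T-DNA lines mkkk17 and mkkk18 of the same age went through the same treatment, with 3 ABA and 3 mock libraries each, and serve here for comparison. The study describes the 3 libraries of a group as independent biological replicates. A single insertion line stands for the loss of ABI1, and whole seedlings mix all tissues, so that fewer cells of a type and less miRNA per cell cannot be told apart. The tables hold miRNAs only. The mRNA of ABI1 (AT4G26080, chr4:13219915-13222376, minus strand, TAIR10.1) and the ABA marker mRNAs are therefore not measured, and the genotype labels could not be checked against the data.

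Abscisic acid (ABA) is the hormone with which plants respond to drought, salt and cold. ABI1 is a protein phosphatase that holds the SnRK2 kinases of the pathway inactive until ABA-bound receptors block it, so that plants without ABI1 are known as hypersensitive to ABA. Plant miRNAs are cut by DCL1 from a hairpin as a pair of strands, the 5p and the 3p arm. In general 1 arm is loaded into ARGONAUTE1 and directs the cleavage of target mRNAs, whereas its partner is mostly degraded.

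The mature sequences on which the results turn are shown with bases 2 to 8 (the seed) in capitals, in the DNA letters of the deposited tables. The first are the 3p arms of miR824 and miR2111b, which were called higher with ABA, and miR408-5p, each with its partner arm, which was not called.
miR824-3p: cCTTCTCAtcgatggtctaga
miR824-5p: tAGACCATttgtgagaaggga
miR2111b-3p: aTCCTCGGgatacagtttacc
miR2111a-5p: tAATCTGCatcctgaggttta
miR408-5p: aCAGGGAAcaagcagagcatg
miR408-3p: aTGCACTGcctcttccctggc
The next are miRNAs in which ABA replicate 2 lay far below (the first 4) or far above (the last) the other ABA libraries. They are shown for their base composition, since the first 4 are rich in A and T.
miR161.2: tCAATGCAttgaaagtgacta
miR447a.2-3p: tATGGAAGaaattgtagtatt
miR400: tATGAGAGtattataagtcac
miR846-3p: tTGAATTGaagtgcttgaatt
miR472-3p: tTTTTCCTactccgcccatacc
By exact match to TAIR10.1, the 3p arm of miR824 lies at chr4:12625721-12625741 and its 5p arm at chr4:12625128-12625148, both on the plus strand within the MIR824 transcript AT4G24415, with 572 nt between them. MIR2111b (AT5G02035) has a short loop of 41 nt, and its arms, in capitals here, lie on the plus strand at chr5:400402-400484.
MIR2111b: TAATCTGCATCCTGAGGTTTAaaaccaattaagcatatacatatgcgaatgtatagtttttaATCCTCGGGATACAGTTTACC
The 5p sequence of this hairpin also occurs in MIR2111a on chromosome 3, and the tables hold it as 1 entry for both loci. The arms of MIR408 (AT2G47015) lie at chr2:19319866-19319886 and chr2:19319933-19319953, on the plus strand.

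The 6 tables list the same 350 mature sequences in RPM (read numbers scaled to a common library size), rounded to 1 decimal. The libraries held between 7380148 and 12933992 adapter-clipped reads, and 3 reads in such libraries amount to 0.232 to 0.406 RPM, which is taken as the floor of detection and accounts for counting error alone. Of the 350 sequences, 250 were above 0 in at least 1 of the 6 libraries and 145 in all 6. To compare libraries, values were divided by median-of-ratios factors computed from miRNAs present in every library, a step that raised the ABA against the mock libraries by 0.13 on the log2 scale. The rescaled RPM are used below unless deposited values are named. Those miRNAs whose mean reached 1 RPM, 129 in number, were tested with limma on log2(rescaled RPM + 0.5), a scale that understates the changes of low miRNAs, and called at a Benjamini-Hochberg adjusted p under 0.05.

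The 3 ABA libraries did not resemble each other equally. The Euclidean distance between ABA replicates 1 and 3, computed from log2 rescaled RPM of 129 miRNAs on the scaling of 24 libraries, was 5.05. ABA replicate 2 lay 12.8 from ABA replicate 1 and 13.1 from ABA replicate 3. Its 3 nearest libraries among all 24 were the WT Col-0 ABA libraries, at 7.18, 8.02 and 8.56, and it lay 14.2 to 15.0 from the abi1td mock libraries. ABA replicate 1 was nearest to mkkk18 ABA replicate 2, just ahead of ABA replicate 3, and ABA replicate 3 was nearest to ABA replicate 1. Neither came within 11.8 of any WT Col-0 ABA library. After a correction for GC content, added after seeing the data, ABA replicate 2 was still nearest to a WT Col-0 ABA library, at 7.07, and lay 8.67 and 8.90 from the other abi1td ABA libraries. The gap between these groups was then much smaller, as the WT Col-0 ABA libraries lay up to 8.31 away. Its 3 nearest libraries then included mkkk17 ABA replicate 3, at 7.85. Among the 6 abi1td libraries alone, the first principal component held 70.0% of the variance, and ABA replicate 2 scored 10.9 on it against -3.53 to -0.46 for the other 5.

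**Figure D1:**
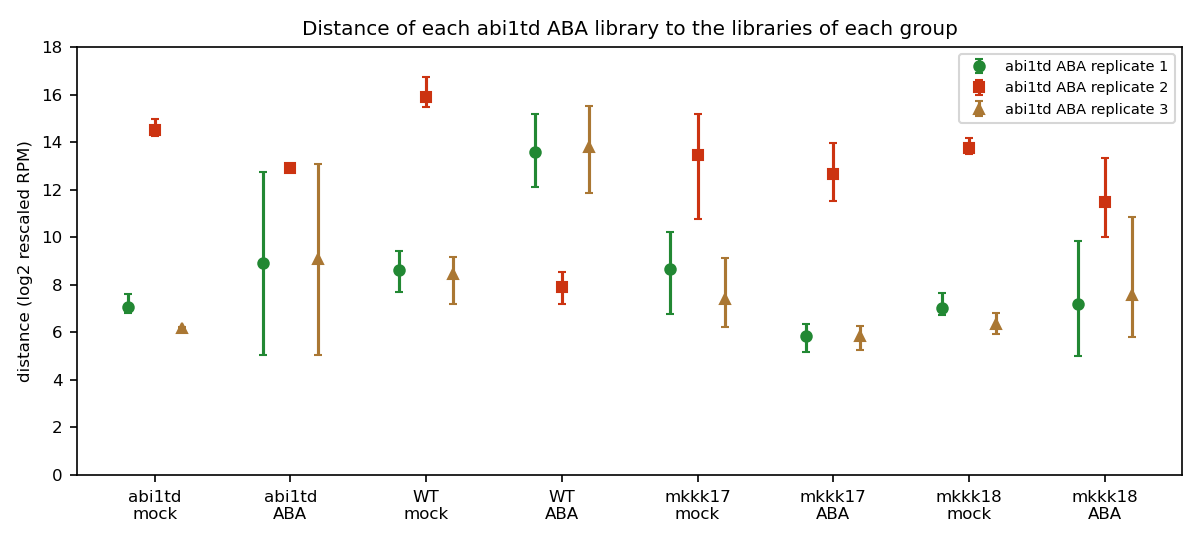
Euclidean distance (y axis, log2 rescaled RPM, 129 miRNAs) of each abi1td ABA library to the libraries of the 8 groups (x axis); markers are means and bars run from the nearest to the farthest library of the group, the library itself left out. ABA replicate 2 is the library that lies close to the WT Col-0 ABA group, at 7.18 to 8.56, and far from its own mock group.

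Compared with the mean of the 3 mock libraries, 53 of 129 miRNAs (41.1%) differed more than 2-fold in ABA replicate 2, with 20 higher and 33 lower. In ABA replicate 1 the count was 11 (8.53%; 7 higher, 4 lower) and in ABA replicate 3 it was 5 (3.88%; all higher). As a measure without ABA, each mock library set against the mean of the other 2 gave 0, 1 and 1 such miRNAs. ABA replicate 2 was not the shallowest ABA library, with 7952044 clipped reads against 7380148 and 9404515, but it held the fewest miRNAs of at least 1 RPM, 107 against 134 and 124 in the other ABA libraries and 121 to 140 in mock. In 15 sequences it alone among the 6 libraries was at 0, while this held for 6 in ABA replicate 1 and 3 in ABA replicate 3. Of the 15, 12 were too low to be tested, and some lay near the floor in the other libraries, such as miR5637 at 0.2 to 0.3 RPM. The one with the highest mock values was miR860, for which the deposited RPM were 3.3, 2.1 and 4.0 in mock and 1.8, 0 and 2.6 with ABA.

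Across the 121 miRNAs tested in both genotypes, the log2 difference of ABA replicate 2 from the abi1td mock mean had a Pearson correlation of 0.89 with the WT Col-0 fold change, with a slope of 0.83. For ABA replicates 1 and 3 the correlations were 0.42 and 0.44, with slopes of 0.18 and 0.16. These values describe single libraries, miRNAs of a library share its depth and composition, and no test was made. Of the 33 miRNAs that rose in WT Col-0, ABA replicate 2 was above all 3 abi1td mock libraries in 31, ABA replicate 1 in 21 and ABA replicate 3 in 18. Over all 129 miRNAs, ABA replicates 1, 2 and 3 were above all 3 mock libraries in 49 (38%), 52 (40.3%) and 44 (34.1%). Of the 42 that fell in WT Col-0, ABA replicate 2 was below all 3 mock libraries in 38, ABA replicate 1 in 22 and ABA replicate 3 in 18. Over all 129 they were below all 3 mock libraries in 44 (34.1%), 60 (46.5%) and 42 (32.6%).

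**Figure D2:**
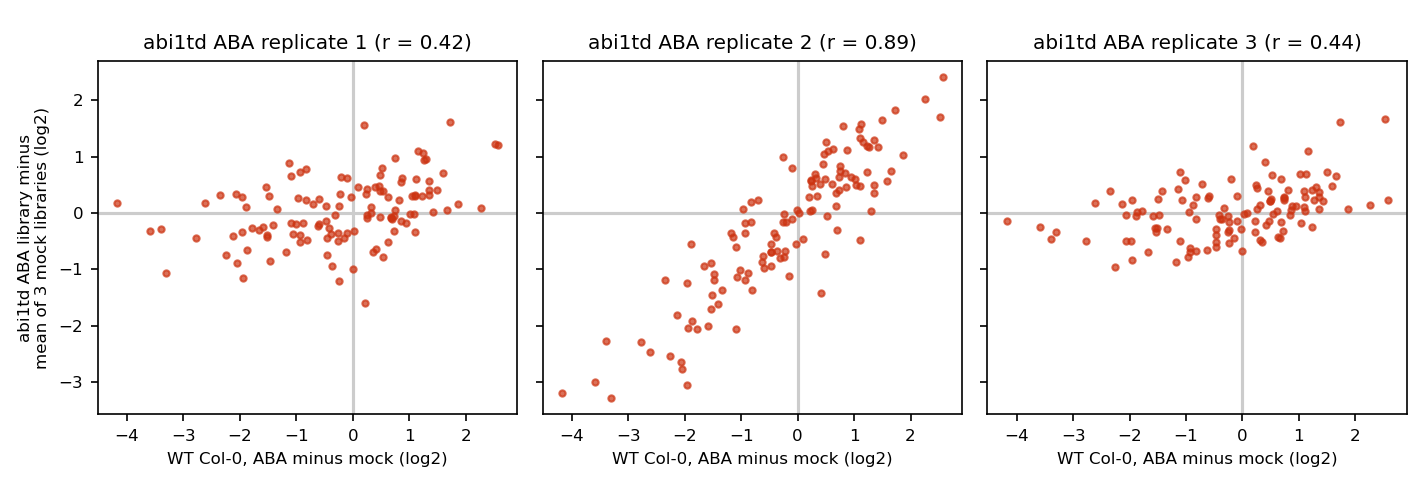
Log2 difference of each abi1td ABA library from the mean of the 3 abi1td mock libraries (y axis) against the log2 fold change by ABA in WT Col-0 (x axis), for 121 miRNAs (points). The points of ABA replicate 2 follow the WT Col-0 change with r = 0.89, those of replicates 1 and 3 with r = 0.42 and 0.44.

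GC content of the mature sequence moved with the position of ABA replicate 2. The 32 miRNAs of at most 40% GC had a median log2 difference from mock of -1.86 in ABA replicate 2, against -0.20 and -0.10 in ABA replicates 1 and 3. The 42 miRNAs over 50% GC had medians of 0.63 in ABA replicate 2 and 0.13 and -0.01 in the others. In WT Col-0 the fold changes of the same classes had medians of -1.87 and 0.62. The mean GC content weighted by RPM was 56.7% in ABA replicate 2, 52.2% to 53.4% in the other 5 abi1td libraries, and 56.6% to 57.8% in the WT Col-0 ABA libraries. It was also high in mkkk18 ABA replicate 1, at 57.5%. Among the mock libraries it was highest in mkkk17 mock replicate 1, at 54.8%. The part of base composition in the position of ABA replicate 2 was not tested beyond the GC correction. The calls below are therefore given with and without ABA replicate 2.

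**Figure D3:**
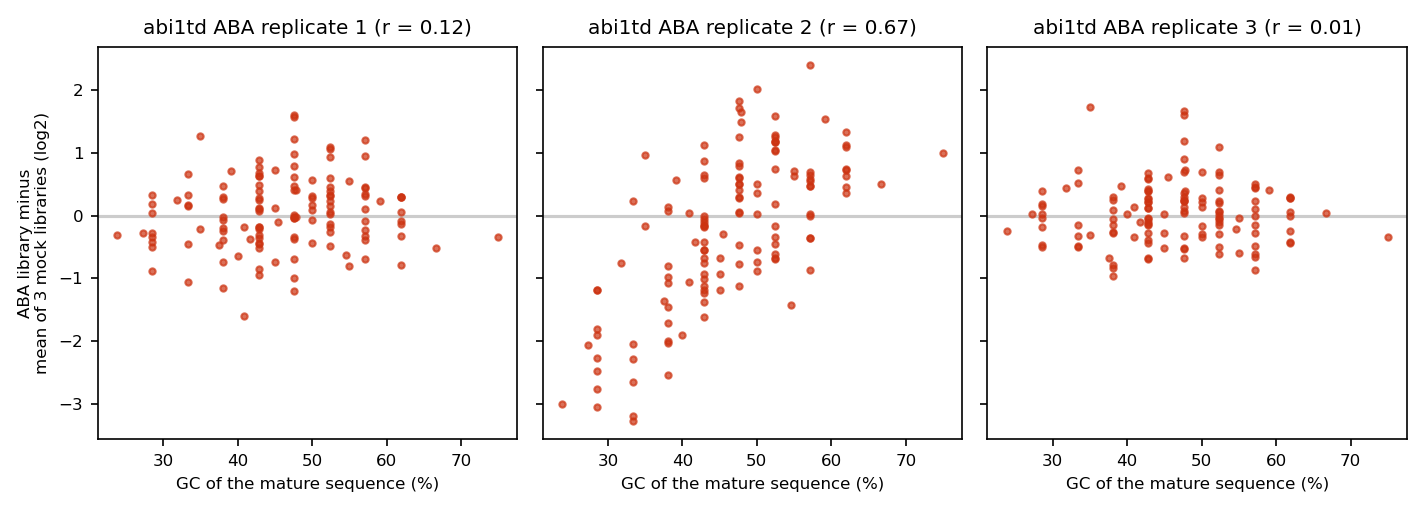
Log2 difference of each abi1td ABA library from the mean of the 3 mock libraries (y axis) against the GC content of the mature sequence in % (x axis), for 129 miRNAs (points). The relation is steep in ABA replicate 2 (r = 0.67) and weak in replicates 1 and 3 (r = 0.12 and 0.01).

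The miRNAs most lowered in ABA replicate 2 against ABA replicates 1 and 3 were miR161.2, miR447a.2-3p, miR400, miR1886.2 and miR846-3p, with 23.8% to 33.3% GC. The members miR161.2 and miR400 target pentatricopeptide repeat (PPR) transcripts, miR447a.2-3p targets 2-phosphoglycerate kinase transcripts, and miR846-3p targets jacalin lectin transcripts. For miR161.2 the rescaled RPM were 81.2, 90.4 and 100.3 in mock and 101.8, 9.43 and 81.6 in ABA libraries. ABA replicates 1 and 3 thus lay within or next to the mock range, while ABA replicate 2 was far under it. On the scaling of all 24 libraries, the WT Col-0 ABA libraries held 9.30, 6.66 and 5.29 RPM of miR161.2 and the WT Col-0 mock libraries 109, 135 and 149 RPM. The same shape was seen in miR400, with 6.97, 10.1 and 8.78 in mock and 9.70, 1.13 and 9.75 in ABA libraries, and in miR447a.2-3p, with 16.6, 21.2 and 20.3 in mock and 15.4, 1.97 and 16.1 in ABA libraries, where ABA replicates 1 and 3 also lay just under the mock range. In miR1886.2 the deposited RPM were 10.2, 4.1 and 4.0 in mock and 9.0, 0.3 and 3.3 in ABA libraries, the value of ABA replicate 2 being under its 3-read floor of 0.377 RPM. Such low values were not limited to ABA libraries. On the scaling of 24 libraries, mkkk17 mock replicates 1, 2 and 3 held 19.6, 92.3 and 122 RPM of miR161.2. They held 32.8, 91.1 and 113 RPM of miR846-3p and 5.89, 20.7 and 21.9 RPM of miR447a.2-3p. The gap was smaller in miR400 (5.89, 8.06 and 9.53 RPM) and miR1886.2 (4.48, 6.65 and 5.74 RPM).

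Most raised in ABA replicate 2 were miR472-3p, miR167c-3p, miR164b-5p, miR171a-3p and miR156b-3p, with 47.8% to 61.9% GC. For miR472-3p, which targets transcripts of NLR immune receptors, the rescaled RPM were 104, 118 and 116 in mock and 120.0, 459 and 124 in ABA libraries. The WT Col-0 ABA libraries held 222, 404 and 585 RPM, on the scaling of all 24 libraries. On that scaling mkkk17 mock replicates 1, 2 and 3 held 365, 120 and 107 RPM. For miR171a-3p, which targets GRAS-domain (SCL) transcripts, the values were 53.3, 51.2 and 54.3 in mock and 65.8, 129.8 and 55.4 in ABA libraries. None of these 10 miRNAs passed the test in abi1td with all 6 libraries (limma, adjusted p from 0.324 to 0.600), nor without ABA replicate 2.

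With all 6 libraries, ABA raised miR824-3p and miR2111b-3p, and no miRNA was lowered past the threshold. These were 2 of 129 miRNAs tested (1.55%), and 15 (11.6%) had an unadjusted p under 0.05. Rescaled RPM of miR824-3p were 88.7, 95.5 and 87.3 in mock and 276, 322 and 276 in ABA libraries. The 3 ABA libraries, ABA replicate 2 included, stood together well above the mock libraries. The group means were 90.5 ± 4.39 for mock and 291 ± 26.5 for ABA (SD, n = 3), and the log2 fold change was 1.68 (SE 0.20, limma, Benjamini-Hochberg adjusted p = 0.00349). The miR824 family belongs to the Brassicaceae and its 5p arm targets AGL16, a MADS-box gene with roles in stomatal development and flowering time, whereas the 3p arm is the partner strand.

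For miR2111b-3p the rescaled RPM were 13.7, 19.2 and 13.5 in mock and 36.3, 51.0 and 49.5 in ABA libraries. All ABA libraries lay above all mock libraries, with a log2 fold change of 1.53 (SE 0.27, limma adjusted p = 0.0231). The miR2111 family is known for its induction by phosphate starvation, and in Lotus japonicus it moves from shoot to root, where it acts on a regulator of nodulation. Both increases kept their size without ABA replicate 2, at 1.55 for miR824-3p and 1.39 for miR2111b-3p (limma, adjusted p = 1.2e-10 and 8.4e-07). Both calls were lost on RPM as deposited (limma, adjusted p = 0.210 and 0.248), on which the fold changes were 1.55 and 1.40. They were also lost when mock replicate 1 or mock replicate 2 was left out, with adjusted p of 0.0724 and 0.0517 for miR824-3p and 0.253 and 0.0706 for miR2111b-3p. The call of miR2111b-3p was lost as well without mock replicate 3 or ABA replicate 3 (limma, adjusted p = 0.158 and 0.122).

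In the other genotypes the fold changes of miR824-3p were 1.73 in WT Col-0, 1.21 in mkkk17 and 1.38 in mkkk18 (limma on the 6 libraries of each, adjusted p = 2.8e-05, 0.0246 and 0.0330). The abi1td response differed from that of WT Col-0 by -0.13 (SE 0.32, adjusted p = 0.824). For miR2111b-3p the fold changes were 2.53 in WT Col-0, 0.63 in mkkk17 and 0.91 in mkkk18, past the threshold in WT Col-0 (adjusted p = 1.9e-06, 0.551 and 0.140). The abi1td minus WT Col-0 difference was -1.07 (SE 0.42, adjusted p = 0.137). The WT Col-0 mock libraries held 7.27, 8.95 and 5.03 RPM of miR2111b-3p and the WT Col-0 ABA libraries 41.6, 44.8 and 44.2 RPM, against 38.9, 55.8 and 52.8 RPM in the abi1td ABA libraries on the same scaling of 24 libraries.

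Without ABA replicate 2, 10 of 129 miRNAs were called (7.75%), 5 higher (3.88%) and 5 lower (3.88%). The higher were miR824-3p, miR2111b-3p, miR408-5p, miR866-3p and miR397a, and the lower were miR393b-3p, miR167a-3p, miR171b-5p, miR840-5p and miR390a-3p. The moderated spread of this fit was taken almost wholly from all miRNAs together (111 degrees of freedom, against 8.43 with 6 libraries), so that its p-values assume that the 2 remaining ABA libraries vary like the average miRNA. The library left out was chosen with its distance from the others known.

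The copper miRNAs miR408 and miR397 target plantacyanin and laccase transcripts and rise when copper is scarce. For miR408-5p the rescaled RPM were 6.27, 5.70 and 6.74 in mock and 13.9, 15.5 and 13.9 in ABA libraries, and the groups did not overlap. The log2 fold change was 1.15 with 6 libraries (SE 0.25, limma adjusted p = 0.0586) and 1.05 without ABA replicate 2 (adjusted p = 0.00256). Its partner miR408-3p, the main arm, had 205, 188 and 178 in mock and 233, 480 and 231 in ABA libraries, a fold change of 0.64 with and 0.23 without ABA replicate 2 (adjusted p = 0.324 and 0.450). Of miR397a the libraries held 2.18, 1.82 and 2.35 in mock and 7.22, 2.67 and 5.42 in ABA libraries. Here ABA replicate 2 was the ABA library closest to mock. The fold change was 1.01 (SE 0.37, adjusted p = 0.324) with 6 libraries and 1.33 (SE 0.30, adjusted p = 0.000713) without ABA replicate 2. Its near-identical relative miR397b, with which it may share reads, had 103, 152 and 140.5 in mock and 158.7, 55.0 and 152 in ABA libraries, and did not pass with or without ABA replicate 2 (adjusted p = 0.710 and 0.532).

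For miR866-3p, whose role is less clear, the rescaled RPM were 1.06, 0.97 and 1.12 in mock and 3.23, 2.53 and 4.66 in ABA libraries, and the fold change was 1.32 with and 1.47 without ABA replicate 2 (limma, adjusted p = 0.0756 and 0.000216). These are low values, the mock libraries lying between 0.8 and 1.5 RPM as deposited.

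Among the miRNAs called lower without ABA replicate 2 was miR393b-3p, the arm opposite to the miR393 that targets the TIR1 and AFB auxin receptors, which has been tied to the SNARE gene MEMB12 in defence. Its rescaled RPM were 51.5, 49.3 and 43.9 in mock and 28.6, 7.88 and 24.5 in ABA libraries. All ABA libraries lay under all mock libraries, but ABA replicate 2 was far below the other 2. The fold change of -1.41 (SE 0.45, limma adjusted p = 0.272) with 6 libraries became -0.91 (SE 0.21, adjusted p = 0.000743) without it. The 5p entry shared by miR393a and miR393b had 53.2, 51.5 and 62.6 in mock and 52.9, 33.2 and 64.7 in ABA libraries (fold change -0.19 with and 0.017 without ABA replicate 2, adjusted p = 0.666 and 0.973). In miR171b-5p the values were 2.96, 3.16 and 3.78 in mock and 1.20, 0.42 and 1.63 in ABA libraries, with fold changes of -1.34 with and -1.05 without ABA replicate 2 (adjusted p = 0.160 and 0.0132).

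For miR167a-3p, an abundant partner of the miR167 arm that targets ARF6 and ARF8, the rescaled RPM were 1468, 1376 and 2031 in mock and 805, 1656 and 1007 in ABA libraries. ABA replicate 2 lay within the mock range, and the other ABA libraries lay under it. The fold change was -0.54 (SE 0.31, adjusted p = 0.342) with it and -0.89 (SE 0.22, adjusted p = 0.00214) without it. It was -1.58 in mkkk17, -1.24 in mkkk18 (adjusted p = 0.0246 and 0.0330) and -0.005 in WT Col-0 (adjusted p = 0.984). The difference between abi1td and WT Col-0 was -0.61 (SE 0.42, adjusted p = 0.377). In miR390a-3p, the partner of the arm that triggers tasiRNA from TAS3, the values were 4.15, 5.95 and 3.57 in mock and 1.65, 2.39 and 2.93 in ABA libraries (fold change -0.84 with and -0.93 without ABA replicate 2, adjusted p = 0.324 and 0.0366). Values of miR840-5p were 1.97, 2.31 and 1.53 in mock and 0.30, 1.97 and 1.41 in ABA libraries, so that its call without ABA replicate 2 (-1.03, adjusted p = 0.0217) rests mainly on ABA replicate 1, which was at 0.4 RPM as deposited, close to its floor of 0.406 RPM.

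**Figure D4:**
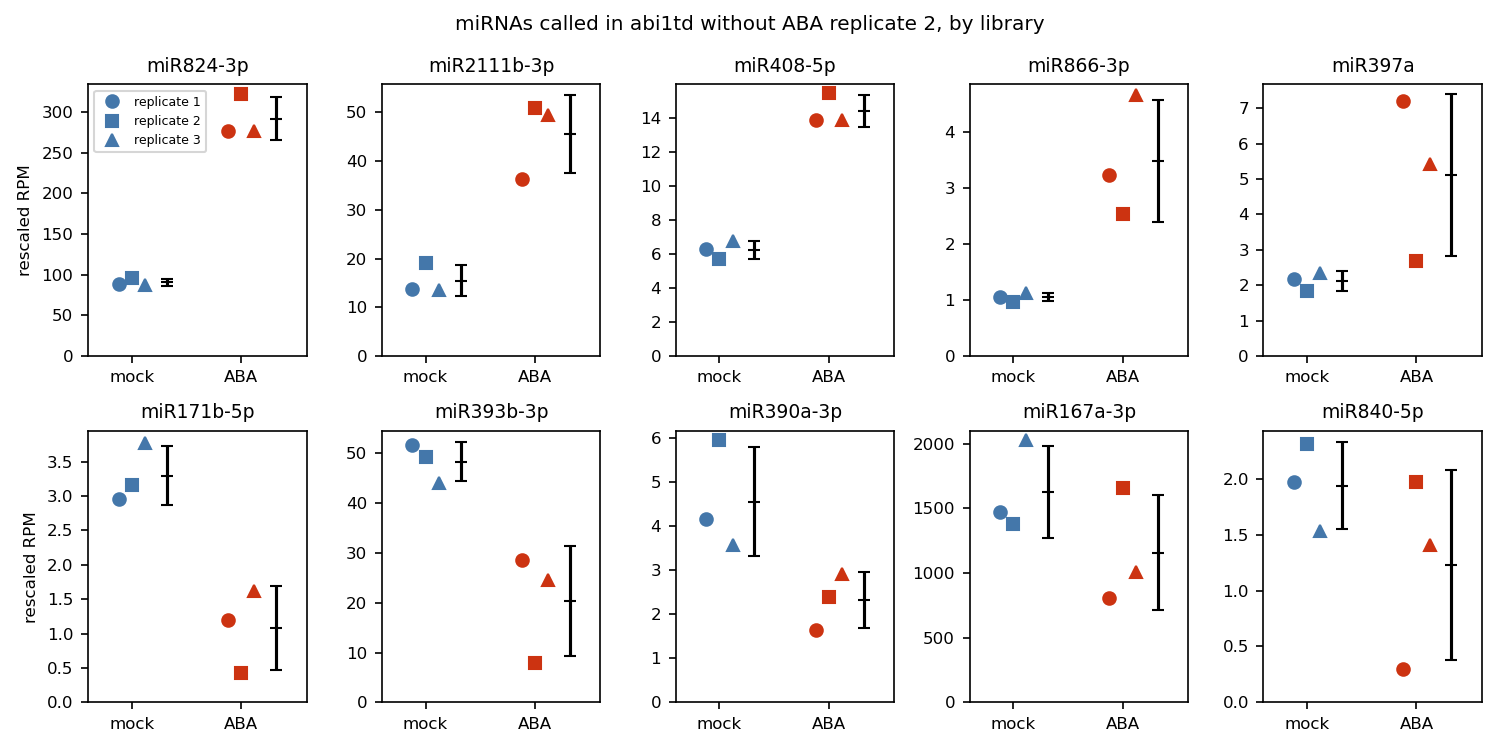
Rescaled RPM (y axes, from 0) of the 10 miRNAs called in abi1td without ABA replicate 2, in each mock (blue) and ABA (red) library; circles, squares and triangles are replicates 1, 2 and 3, and bars are the mean ± SD of 3 libraries. The ABA libraries of miR824-3p lie at 276 to 322 against 87.3 to 95.5 in mock, while in miR397a, miR393b-3p and miR167a-3p the square of ABA replicate 2 lies apart.

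Of these 10 miRNAs, 4 were called in the same direction in mkkk17 (miR824-3p, miR167a-3p, miR171b-5p and miR390a-3p), which are 40% of the 10 and 100% of the 4 called in mkkk17 (3.1% of 129 tested there). Of the 4 called in mkkk18 (3.01% of 133 tested), 2 were among the 10 (miR824-3p and miR167a-3p). In WT Col-0, where 75 of 125 miRNAs were called (60%; 26.4% higher and 33.6% lower), 9 of the 10 were tested and 5 were called in the same direction, 50% of the 10 and 6.67% of the 75. These genotypes share no library with abi1td.

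The scaled ABA and mock values did not overlap for 41 of the 129 miRNAs (31.8%), with the ABA libraries above in 19 (14.7%) and below in 22 (17.1%). On RPM as deposited this held for 13 (10.1%). Among the remaining miRNAs without overlap were miR391-3p, with 6.90, 8.01 and 5.21 in mock and 14.3, 15.6 and 8.88 in ABA libraries (fold change 0.88, limma adjusted p = 0.324), miR156b-3p, with 33.9, 35.6 and 37.5 in mock and 47.4, 112.9 and 59.2 in ABA libraries (0.93, adjusted p = 0.324), and miR398a-3p, with 1.13, 0.97 and 1.63 in mock and 2.10, 4.65 and 2.28 in ABA libraries (0.96, adjusted p = 0.324). None of these passed the test with or without ABA replicate 2.

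Apart from the 0.5 RPM added to each arm, a ratio of the arms of a hairpin within a library does not depend on the rescaling. It was therefore tested on RPM as deposited, and the ratios below include the added 0.5 RPM. That addition weighs most on arms of low RPM, such as miR156f-3p. Of 43 pairs of arms, 4 were called (9.3%), all with a shift towards the 3p arm under ABA, and the ratios did not overlap between groups in 9 (20.9%). In all 4 called the 3p arm had more GC, by 4.8 (miR824), 9.5 (miR2111b), 7.1 (miR472) and 7.1 (miR156f) percentage points. In miR393b, with the largest shift towards the 5p arm, the difference was -11.9. More GC in the 3p arm was not limited to the pairs called. The difference was larger in miR2111a (23.8) and miR403 (15.6), which were not called and had log2 changes of 0.33 and 0.23. Other pairs did not follow this order, such as miR158a with 11.4 and a log2 change of -0.74. A ratio does not remove an effect of GC content, and the part of GC in these calls was not tested. For miR824 the 3p to 5p ratio was 2.76, 2.61 and 2.46 in mock and 4.64, 10.3 and 6.53 in ABA libraries. All ABA libraries were above all mock libraries, ABA replicate 2 the most. The log2 ratio rose by 1.38 (SE 0.44, limma adjusted p = 0.0299). Deposited RPM of the 3p arm averaged 96.7 in mock and 283.5 in ABA libraries, those of the 5p arm 36.5 and 46.3. The 5p arm, which targets AGL16, did not pass the test in abi1td (0.30, adjusted p = 0.515) and fell in WT Col-0 (-0.83, adjusted p = 0.0102). For miR2111b the ratio was 1.79, 2.81 and 2.25 in mock and 5.42, 12.2 and 6.70 in ABA libraries, a log2 change of 1.77 (SE 0.44, adjusted p = 0.00418). The 5p entry, whose deposited RPM averaged 7.2 in mock and 5.8 with ABA, is shared with MIR2111a.

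The other pairs called were miR472 and miR156f, and in these the groups overlapped. For miR472 the ratio was 27.5, 21.3 and 21.9 in mock and 50.1, 142 and 27.4 in ABA libraries (log2 change 1.31, limma adjusted p = 0.0459), and without ABA replicate 2 the change was 0.66 (adjusted p = 0.204). The miR472 call was also lost with a pseudocount of 0.1 or 1 (limma, adjusted p = 0.0571 and 0.0501). For miR156f the log2 ratio was -6.93, -7.72 and -6.05 in mock and -6.03, -3.94 and -6.37 in ABA libraries (change 1.45, adjusted p = 0.0299; 0.70 without ABA replicate 2, adjusted p = 0.195). Its 5p sequence is common to 6 loci of the miR156 family, which targets SPL transcripts, and the deposited RPM of its 3p arm averaged 2.17 in mock and 5.23 with ABA. Without ABA replicate 2 only miR2111b was called (1.43, adjusted p = 0.00969), and miR824 had a change of 1.08 (adjusted p = 0.0736). No pair was called when mock replicate 1 or mock replicate 3 was left out, and 7 were called without ABA replicate 1. The largest shift in the other direction was that of miR393b, at 0.97, 0.96 and 0.70 in mock and 0.54, 0.25 and 0.38 in ABA libraries (-1.21, adjusted p = 0.0582). Standard errors were nearly equal for all pairs (0.44 to 0.46), since the spread was shared over them.

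**Figure D5:**
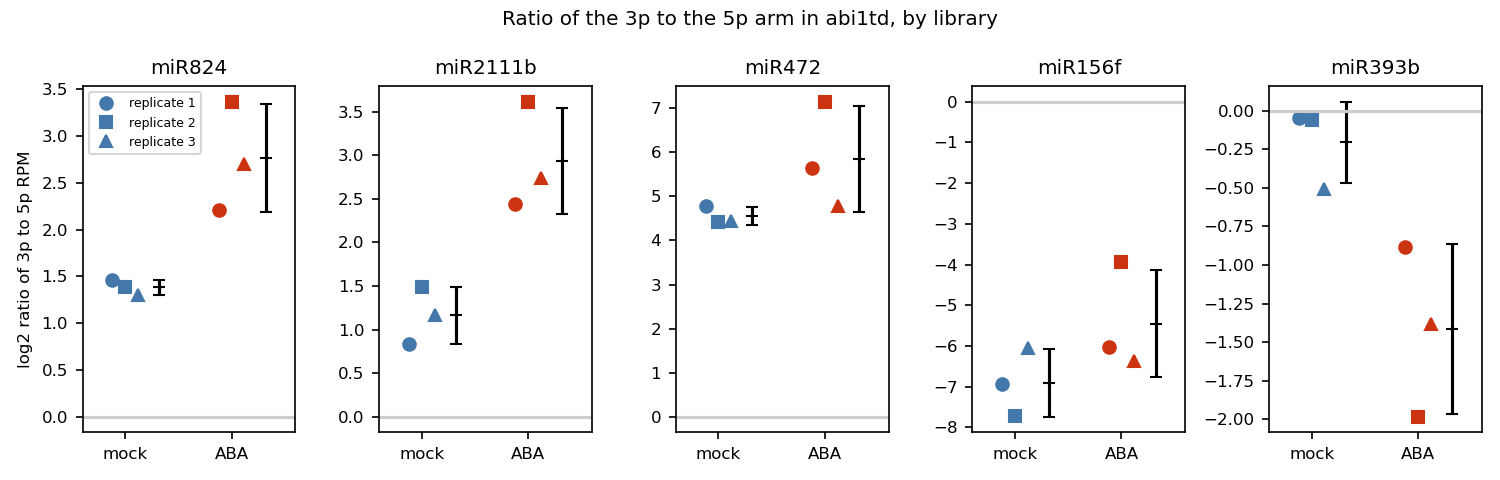
Log2 ratio of 3p to 5p RPM (y axes, differing in range) in each mock (blue) and ABA (red) library of abi1td for the 4 pairs called and for miR393b; circles, squares and triangles are replicates 1, 2 and 3, bars the mean ± SD of 3 libraries. In miR824 and miR2111b all ABA libraries lie above all mock libraries, while in miR472 and miR156f the square of ABA replicate 2 stands above the rest.

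Families were also grouped by their known targets or triggers, and each group is set beside all 129 miRNAs, of which 46.5% had a positive fold change with a median of -0.08. The copper group (miR397, miR398, miR408 and miR857) had 9 of 9 entries tested, 6 with a positive fold change, none called, and a median of 0.36. In 4 of the 9 the ABA libraries were all above the mock libraries, against 14.7% of all 129 miRNAs. These 4 were both arms of miR408, miR397a and miR398a-3p, and are not 4 separate members. The entries miR397a and miR398a-3p are low. Each differs by 1 base from a more abundant relative, miR397b or miR398b-3p, with which it may share reads. The median of the copper group was 0.23 and 2 were called higher when ABA replicate 2 was left out, against 3.88% of all miRNAs. Groups without overlap were not limited to copper. Of the lists below, all ABA libraries lay above mock in 3 of 9 phosphate and 3 of 12 phase change entries. They lay below mock in 3 of 6 MYB and TCP and 4 of 17 auxin entries, against 17.1% of all 129. The phosphate group (miR399, miR827, miR778 and miR2111) had 9 of 11 tested, 1 called higher (miR2111b-3p), 6 positive and a median of 0.29, or 0.06 without ABA replicate 2. In the auxin group (miR160, miR164, miR167, miR390 and miR393) 17 of 18 were tested, none called, 8 were positive and the median was -0.06. Without ABA replicate 2, 3 of the 17 were called lower, against 3.88% of all miRNAs, and all 3 were partner arms (miR167a-3p, miR390a-3p and miR393b-3p).

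The sulfate miRNA miR395 had 1 of 2 entries tested (-0.45, not called). In the phase change group (miR156, miR157 and miR172) none of 12 tested was called, with 7 positive and a median of 0.11, or 0.034 without ABA replicate 2. All 5 entries of miR165 and miR166, which target HD-ZIP III transcripts, had positive fold changes (0.01 to 0.48) and none was called. Their median was 0.26 with and -0.03 without ABA replicate 2. The MYB and TCP group (miR159, miR319, miR828 and miR858) had 2 of 6 positive and a median of -0.24 (-0.25 without ABA replicate 2), and the group on the silencing machinery (miR162, miR168, miR403 and miR838) had 5 of 8 positive and a median of 0.35 (0.27 without it), with no call in either. In the group on GRAS, GRF and NF-YA transcripts (miR169, miR170, miR171 and miR396) 4 of 13 were positive and the median was -0.29. Without ABA replicate 2 the median was -0.12 and the group had 1 call, miR171b-5p, lower.

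Smaller groups showed the position of ABA replicate 2 most. Their members miR161.2, miR400, miR846-3p and miR447a.2-3p were already picked above for that position, so the group values partly restate that choice. The PPR and tasiRNA triggers (miR161, miR173 and miR400) had a median log2 difference from mock of -1.38 over 4 tested members in ABA replicate 2, against 0.09 and 0.16 in ABA replicates 1 and 3. The jacalin lectin group (miR842 and miR846) had -1.70 over 3 members in ABA replicate 2, against 0.46 and -0.26. The tested member of miR447 was described above. None of these groups had a call in abi1td. The WT Col-0 medians of the first 2 were -1.15 and -1.54, and miR447a.2-3p had a fold change of -3.59 in WT Col-0. For the NLR group (miR472 and miR825) the median over 3 members was -0.58 with no call (-0.55 without ABA replicate 2), and for miR158 it was -0.65 over 3 members with no call (-0.37 without it). Both tested arms of miR824 had positive values, with miR824-3p called. Of 37 tested entries of families tied to ABA or drought in Arabidopsis, a list that overlaps the others, 17 were positive, none was called and the median was -0.08. Without ABA replicate 2, 2 of the 37 were called higher (miR397a and miR408-5p) and 1 lower (miR393b-3p). Among all 129 miRNAs 5 were called higher and 5 lower (3.88% each), so these few calls do not set the list apart.

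The 5 most abundant entries were miR166a-3p, miR158a-3p, miR159a, miR165a-3p and miR159b-3p, and none passed the test. The entry of miR166a-3p, common to 7 loci, took 35.6%, 38.3% and 34.9% of the summed RPM in mock and 35.1%, 50.6% and 41.4% in ABA libraries. ABA replicate 2 had the highest share, and the WT Col-0 ABA libraries had 48.6%, 55.0% and 52.8%. The share of miR158a-3p was 16.4%, 15.9% and 13.7% in mock and 11.9%, 3.68% and 14.5% in ABA libraries, with 4.64%, 3.35% and 1.98% in the WT Col-0 ABA libraries. Its fold change in abi1td was -0.85 (SE 0.45, limma adjusted p = 0.333), and -0.37 without ABA replicate 2. For miR159a, which targets MYB transcripts that take part in ABA responses, the rescaled RPM were 4715, 4558 and 4172 in mock and 4869, 4436 and 4011 in ABA libraries, with a fold change of -0.02 (95% interval -0.47 to 0.44), or -0.076 without ABA replicate 2.

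The ABA response was then compared between genotypes in a fit of all 24 libraries. The difference from WT Col-0 was called for 2 of 129 miRNAs (1.55%). Both fell in WT Col-0 and had a less negative log2 response in abi1td, and no difference was called in the other direction. The response of miR846-3p differed by 2.31 (SE 0.59, limma adjusted p = 0.0437) and that of miR158a-5p by 2.14 (SE 0.55, adjusted p = 0.0437). On the scaling of 24 libraries, the abi1td values of miR846-3p were 113, 117 and 138 in mock and 97.6, 24.6 and 85.4 in ABA libraries. In WT Col-0 the mock libraries held 129, 138 and 121 RPM and the ABA libraries 18.1, 11.6 and 8.61 RPM. The WT Col-0 ABA libraries were thus all low, and in abi1td ABA replicate 2 came closest to it. For miR158a-5p the values on this scaling were 3.50, 3.55 and 3.59 in mock and 4.43, 1.23 and 4.62 in ABA libraries of abi1td. In WT Col-0 it stood at 5.84, 4.21 and 5.10 RPM in mock and 0.65, 1.09 and 0.21 RPM with ABA. Both calls were lost when any library of these genotypes other than abi1td ABA replicate 2 was left out (limma, adjusted p from 0.0529 to 0.219), except that miR158a-5p kept its call without WT Col-0 ABA replicate 2 (adjusted p = 0.0372). With the GC correction the differences were 1.24 for miR846-3p and 1.08 for miR158a-5p, and neither was called (adjusted p = 0.0808 and 0.245).

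Without ABA replicate 2 the difference from WT Col-0 was called for 27 of 130 miRNAs (20.8%), 22 higher (16.9%) and 5 lower (3.85%) in abi1td. The smallest adjusted p were those of miR161.2 (4.12, SE 0.63, limma adjusted p = 5.0e-05), miR846-3p (2.94, SE 0.51, 0.00016), miR447a.2-3p (3.26, SE 0.58, 0.000172) and miR158a-5p (2.67, SE 0.51, 0.00037), all of which fell in WT Col-0. Among the lower were miR472-3p (-2.23, adjusted p = 0.00675), miR171a-3p (-1.24, adjusted p = 0.0229) and miR157a-3p (-1.83, adjusted p = 0.00307). The 22 higher had a median GC content of 33.3% and the 5 lower of 52.4%, against 47.6% for all tested. The library left out was already known to lie nearest to the WT Col-0 ABA libraries, a choice that favours differences from WT Col-0. The 27 calls are therefore no independent test of a difference. With any other library of these genotypes left out, 0 or 1 difference was called. Apart from miR158a-5p and miR157a-3p, the miRNAs named here were also picked above for the position of ABA replicate 2. Relative to mkkk17 and mkkk18, none of 129 differences was called (0%), with 9 and 4 at an unadjusted p under 0.05 in limma, and none when any of the libraries compared was left out. On RPM as deposited 40 were called relative to mkkk17, all lower in abi1td. Intervals were wide, as the SE of 0.59 for miR846-3p shows, and these counts do not show that the responses were alike.

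A correction for GC content within each library, in which the straight line on GC was removed, gave 6 calls among 129 (4.65%). They were miR824-3p, miR2111b-3p, miR408-5p and miR866-3p, higher, and miR171b-5p and miR393b-3p, lower, with log2 fold changes of 1.69, 1.54, 1.01, 1.73, -1.03 and -1.11 (limma, adjusted p = 0.000307, 0.00211, 0.0294, 0.00211, 0.0452 and 0.0286). All 6 were also called without ABA replicate 2.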

How the data were processed

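Small RNA libraries were made with the TruSeq small RNA chemistry and sequenced on an Illumina HiSeq instrument. Per the study's methods, the authors clipped adapters, removed reads without adapter or that were too short, filtered for base quality with the FASTX-toolkit, and assigned reads to miRBase miRNAs with mirPRo. They deposited RPM per library, rounded to 1 decimal, with replicates kept apart. The denominator of the RPM is not given in the sources used here. Depth was taken from the study's clipped-read totals. The rounding hid what 1 read is worth, and count tests were therefore not used.

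After median-of-ratios rescaling, limma 3.58.1 under R 4.3.3 was fitted to log2(rescaled RPM + 0.5) (empirical Bayes, trend in the variance, Benjamini-Hochberg adjustment, threshold 0.05) for miRNAs averaging 1 RPM or more. The authors ran DESeq2 within each genotype, which needs counts. Arm ratios used log2((3p RPM + 0.5)/(5p RPM + 0.5)) with arms paired by name. Differences between genotypes came from a fit of 24 libraries. The fits were tested on simulated data. Alternatives were RPM as deposited, a trimmed mean scaling, pseudocounts of 0.1 and 1, no filter, a stricter filter at 5 RPM, the replicate block, a GC correction with and without that block, robust moderation, the fit of 24 libraries, and omission of single libraries. The GC-corrected distances were added after seeing the data.

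Entries shared by several loci are named after the first name with an arm suffix. Mature sequences were matched without mismatch to TAIR10.1, since the tables hold no coordinates and the study names TAIR without a build. Tables used pandas 2.3.3 and NumPy 2.4.6 under Python 3.11.15, plots matplotlib 3.10.9, and rank correlations SciPy 1.17.1. Named miRNAs are those called with all 6 libraries or without ABA replicate 2, the 10 with the smallest p among those without overlap, the 5 most abundant, up to 8 that differ from WT Col-0, the 5 most above and the 5 most below in ABA replicate 2 among those with a mean of at least 5 RPM, their partner arms, and examples of the family lists. The comparison, this rule and the lists were chosen with earlier results of these data known. miR860, miR397b and miR157a-3p were named after their values were seen.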

Additional observations from a re-analysis of the deposited data

Results flagged for a closer look

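The log2 ABA response differed between abi1td and WT Col-0 by a test of the difference itself for miR846-3p, by 2.31, and for miR158a-5p, by 2.14 (limma on 24 libraries, adjusted p = 0.0437 for each). All 3 WT Col-0 ABA libraries were low in both miRNAs, and ABA replicate 2 was the lowest abi1td library. ABA replicates 1 and 3 of abi1td lay above the mock libraries in miR158a-5p. In miR846-3p they lay under them, at 97.6 and 85.4 RPM on the scaling of 24 libraries. The differences ranged from 1.92 to 2.94 for miR846-3p and from 1.83 to 2.67 for miR158a-5p when each library was left out in turn, with adjusted p from 0.00016 to 0.219 and from 0.00037 to 0.219. With the GC correction they were 1.24 and 1.08 (limma, adjusted p = 0.0808 and 0.245). Their causes were not tested.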

How the results depend on the processing

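The count of 2 miRNAs called in abi1td became 0 on RPM as deposited, 6 with the GC correction, 5 in the fit of all 24 libraries, and 0 to 10 when each library was left out (0 without mock replicate 1 or 2, 1 without mock replicate 3 or ABA replicate 3, 10 without ABA replicate 2). The 4 arm pairs called became 0 with no filter on low values, 2 with robust moderation, and 0 to 7 when each library was left out (0 without mock replicate 1 or 3, 1 without mock replicate 2 or ABA replicate 2, 2 without ABA replicate 3, 7 without ABA replicate 1). The 2 differences from WT Col-0 became 0 on RPM as deposited, with pseudocount 0.1 or 1, without a filter, at a mean of at least 5 RPM, with the GC correction and with robust moderation, and 0 to 27 when each library was left out (27 without abi1td ABA replicate 2, 1 without WT Col-0 ABA replicate 2, otherwise 0). The 0 differences from mkkk17 became 40, all lower, on RPM as deposited, and the 0 from mkkk18 became 2 without a filter.

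No label ties libraries of the same number to a shared culture or run. Deviations of same-numbered abi1td mock and ABA libraries correlated at -0.05, -0.11 and -0.04, and the main design has no block. With the replicate block 1 miRNA (miR824-3p) and 1 arm pair (miR2111b) were called in abi1td, and miR846-3p but not miR158a-5p (limma, adjusted p = 0.0581) kept its difference from WT Col-0. With the GC correction and the block 1 difference from WT Col-0 was called, which was neither of these.

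Reversed directions were seen in 3 abundant miRNAs that were never called. miR166a-3p went to -0.24 with the GC correction, with or without the block, and ranged from -0.077 (without ABA replicate 2) to 0.46 when each library was left out. miR159a went to 0.14 with the GC correction, with or without the block, and ranged from -0.095 to 0.061 (without ABA replicate 3). miR165a-3p went to -0.12 on RPM as deposited, -0.0075 with trimmed mean scaling, -0.58 with the GC correction, with or without the block, -0.029 in the fit of 24 libraries, and -0.18, -0.30 and -0.002 without mock replicate 3, ABA replicate 2 and ABA replicate 3, up to 0.27 without ABA replicate 1. Of the other alternatives for named miRNAs, 284 kept direction and side of the threshold, 73 lost it and 18 gained it.

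With 3 libraries a group and low miRNAs near 3 reads, small changes could not be resolved, and a missed threshold does not show an absent response.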
